A study of Mus musculus with 12 samples.

Results

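The 90 genes described here are the mouse genes whose symbol begins with Ube2, or with Usp and a digit, and that have a probe set with 1 gene symbol on the array. They were taken by symbol alone, from 19946 genes measured, and 35 of them are Ube2 genes and 55 are Usp genes. The rule itself was chosen with earlier results of these data known. Ube2 genes encode ubiquitin-conjugating enzymes and Usp genes encode ubiquitin-specific proteases, so the set holds enzymes that put ubiquitin on proteins and enzymes that take it off. The symbol rule also took in 1 gene that encodes no protein, Usp46os2, a transcript from the strand opposite Usp46, Usp6nl, which is named for a similarity to a protease but acts on Rab proteins, and Ube2cbp, which is named for binding Ube2c and encodes a ligase, not an E2. Usp17le and Usp49 were read by probe sets with several symbols only and were not analysed here.

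Ubiquitin is a small protein that is joined to other proteins in 3 steps, by an activating enzyme (E1), a conjugating enzyme (E2) and a ligase (E3), and that deubiquitinases such as the Usp proteases remove. A chain of ubiquitin can send a protein to the proteasome, and single ubiquitins or other chains change where a protein goes or what it binds, as on histones and at damaged DNA. Spermatogenesis draws on this system: cells leave meiosis when the anaphase-promoting complex marks cyclins for destruction, chromatin is ubiquitinated while histones are exchanged for protamines, and spermatids shed most of their cytoplasm and organelles.

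The RNA came from whole testes of adult male mice of mixed 129/C57BL6 background, read on 12 Affymetrix Mouse Gene 1.0 ST arrays. All animals had been given WIN 18,446, an inhibitor of retinoic acid synthesis, at 100 ug per gram each day for 7 days, from 2 to 8 days post partum, then 200 ug of retinoic acid (RA) at 9 days post partum. The testes were taken after a recovery of 43 to 49 days and staged by morphology, and 2 samples stand for each of 6 groups of stages of the seminiferous cycle: XII-I and II-IV, then IV-VI and VII, then VIII-IX and IX-XI. The labels describe no untreated animals. Whether a group's samples are separate mice is not stated, so the p-values measure the spread between samples alone, and that spread may be technical. The groups thus differ in stage and share strain, sex and treatment, and the comparison asks which of these enzymes change in transcript level along the cycle.

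Levels are log2 of the deposited intensity, and a difference of 1 is a 2-fold difference in intensity. A gene was called changed when limma's moderated F test among the 6 groups gave an adjusted p under 0.05, with the adjustment made over all 19946 genes. A gene was called dim when its mean over the 12 arrays lay under 7.07, the 90th percentile of 1027 olfactory receptor genes. The arrays had medians of 296.9 to 309.1 on the linear scale. All 6 markers of germ cells lay above the dim line and their summed level stayed between 14.61 and 15.05, while all 4 measured markers of the epididymis were dim by their mean over the arrays. One of the 4, Rnase10, changed all the same (adjusted p = 0.0234) and read 8.36 and 7.67 in XII-I against 6.08 and 6.12 in VII. The markers of Sertoli cells, Leydig cells, peritubular myoid cells and vascular endothelium also lay above the line, as did all but 1 of 5 for macrophages, so the RNA holds the other cells of the testis too. In whole tissue, fewer cells of a type and less RNA per cell cannot be told apart.

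The arrays did not all sit with their own group. For 9 of the 12, the most similar array belonged to another group, and the arrays of VIII-IX and IX-XI were mixed in this way. XII-I sample 2 was closest to II-IV sample 2, and II-IV sample 1 to IV-VI sample 2. Correlations between the 2 samples of a group were 0.987 to 0.995 across genes. The median absolute difference between the 2 samples over the 90 genes was 0.0877 to 0.142. VII sample 2 had the highest summed levels of the Sertoli, Leydig, myoid, macrophage and endothelial markers. Its Leydig sum was 13.8, against at most 13.4 on the other arrays.

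The upstream sequences of 5 of the changed genes are shown as examples of different shapes along the cycle, picked after their values were seen. Ube2c and Ube2f were called changed in every fit that left out 1 array and were low in IX-XI, Ube2h had its lowest mean in XII-I but stayed called in only 2 of those 12 fits, and Ube2dnl1 and Usp45 had the widest ranges of the changed Ube2 and Usp genes. Each is the stretch of 250 bases before the start in RefSeq (GRCm38.p6), 5′ to 3′ on the strand of the gene. Capitals mark matches, on either strand, to 4 motifs: the cAMP response element (CRE) TGACGTCA, the CCAAT box, the core TTTGAA of the cell cycle homology region (CHR), and the RFX core GTTGCC. The Ube2c window is chr2:164769679-164769928 on the plus strand and the Ube2f window chr1:91250054-91250303 on the plus strand. The Ube2h window is chr6:30304540-30304789 on the minus strand, the Ube2dnl1 window chrX:114904762-114905011 on the plus strand and the Usp45 window chr4:21776020-21776269 on the plus strand.
Ube2c: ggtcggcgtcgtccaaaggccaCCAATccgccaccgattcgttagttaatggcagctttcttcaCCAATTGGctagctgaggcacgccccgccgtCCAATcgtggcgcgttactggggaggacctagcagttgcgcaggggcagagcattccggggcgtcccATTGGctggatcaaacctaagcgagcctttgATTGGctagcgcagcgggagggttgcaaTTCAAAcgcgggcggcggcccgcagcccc
Ube2f: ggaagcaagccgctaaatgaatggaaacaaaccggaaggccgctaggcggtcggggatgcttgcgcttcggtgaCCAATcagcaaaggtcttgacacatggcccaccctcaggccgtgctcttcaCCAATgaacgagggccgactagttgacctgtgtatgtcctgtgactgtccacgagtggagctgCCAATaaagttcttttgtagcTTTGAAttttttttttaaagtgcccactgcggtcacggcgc
Ube2h: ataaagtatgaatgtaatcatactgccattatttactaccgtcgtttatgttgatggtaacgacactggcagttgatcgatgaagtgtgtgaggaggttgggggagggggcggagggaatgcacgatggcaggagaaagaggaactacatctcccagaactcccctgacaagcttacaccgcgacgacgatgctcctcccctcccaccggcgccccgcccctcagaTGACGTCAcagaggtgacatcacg
Ube2dnl1: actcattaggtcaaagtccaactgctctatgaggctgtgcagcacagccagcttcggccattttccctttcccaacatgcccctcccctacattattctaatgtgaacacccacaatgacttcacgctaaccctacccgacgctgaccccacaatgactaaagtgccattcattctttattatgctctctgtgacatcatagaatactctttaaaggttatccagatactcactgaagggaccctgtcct
Usp45: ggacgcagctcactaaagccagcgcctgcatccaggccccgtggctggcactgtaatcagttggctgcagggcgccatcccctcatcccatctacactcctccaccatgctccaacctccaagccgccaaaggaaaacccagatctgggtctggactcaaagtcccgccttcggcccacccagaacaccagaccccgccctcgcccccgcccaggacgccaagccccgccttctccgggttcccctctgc

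The Ube2c window held 6 matches to CCAAT, a box bound by the factor NF-Y, and 2 of them overlap in CCAATTGG. Only 0.0791% of 32851 RefSeq promoters of 300 bases, which run from 250 bases before to 50 after the start, held as many. It also held 1 CHR core, which 17.9% of promoters hold, and CCAAT boxes beside a CHR are known from promoters of cell division genes. The Ube2f window held 3 matches to CCAAT, as 3.37% of promoters do, and 1 CHR core, while the window of a second Ube2f start held none of the 4 motifs. The Ube2h window held 1 full CRE, found in 1.79% of promoters. The window of the second Ube2h start held no CRE but 1 RFX core. No match to the 4 motifs lay in the windows of Ube2dnl1 or Usp45. Promoters of 71 of the 90 genes were in the table, 81 in all, and those promoters had a median GC content of 65.0% against 52.7% for all promoters. A CCAAT box lay in 27.2% of them and in 19.2% of the 26 promoters of changed genes, against 37.4% of all promoters. A CHR core lay in 12.3% of the 81 and an RFX core in 17.3%, against 17.9% and 12.5% of all promoters. A full CRE lay in 3 of the 81 (3.7%, against 1.79%). A match describes letters in this window and does not show that a factor binds there.

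Over the cycle, 27 of the 90 genes changed by the F test (30%), against 19.9% of all genes tested. Among genes above the dim line the background was 24.5%, and 84 of the 90 genes lay above it, with all 27 changed genes among them. The 6 dim genes were Usp13, Usp29, Usp35, Usp17la, Usp17lb and Usp17lc. Of the Ube2 genes, 13 of 35 changed (37.1%), and of the Usp genes, 14 of 55 (25.5%). The share for the Usp genes is near the background. At an unadjusted p under 0.05 the count was 49 of 90 (54.4%), against 36.2% of all genes and 44.2% of those above the dim line. The median range, from the lowest to the highest group mean, was 0.414 for the 90 genes and 0.401 for all genes above the dim line. Most of the enzymes thus had small ranges, and 10 of the 90 had a range of at least 2-fold. So did 1868 of all 19946 genes and 1794 of the 15552 above the dim line, and the latter share is near that of the 90.
The 27 calls rest on small groups. Without XII-I sample 1 the count was 17, without IV-VI sample 1 it was 11, without IV-VI sample 2 it was 10 and without VII sample 2 it was 14. Without VIII-IX sample 1 or 2 it was 10 or 13, and without IX-XI sample 1 or 2 it was 12 or 13. The share of all genes called fell in the same fits, to between 7.63% and 14.3%. With VIII-IX sample 2 and IX-XI sample 2 both left out, 0 of the 90 genes and 19 of all genes were called by limma, and the adjusted p of the 27 genes then lay between 0.084 and 0.28. In each of the 12 fits that left out 1 array, 8 genes stayed called: Ube2c, Ube2f, Usp9y, Usp19, Usp47, Usp45, Usp51 and Usp38. They are 8.89% of the 90, against 4.49% of all genes and 5.57% of genes above the dim line. Of the genes that were not called, Ube2b, Ube2e2, Ube2s, Usp3, Usp7, Usp15, Usp16, Usp26, Usp30, Usp39 and Usp42 passed under at least 1 of repeated quantile normalization, median centring, a filter on dim genes, array weights and a trended and robust prior, with adjusted p no lower than 0.020.

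**Figure D1:**
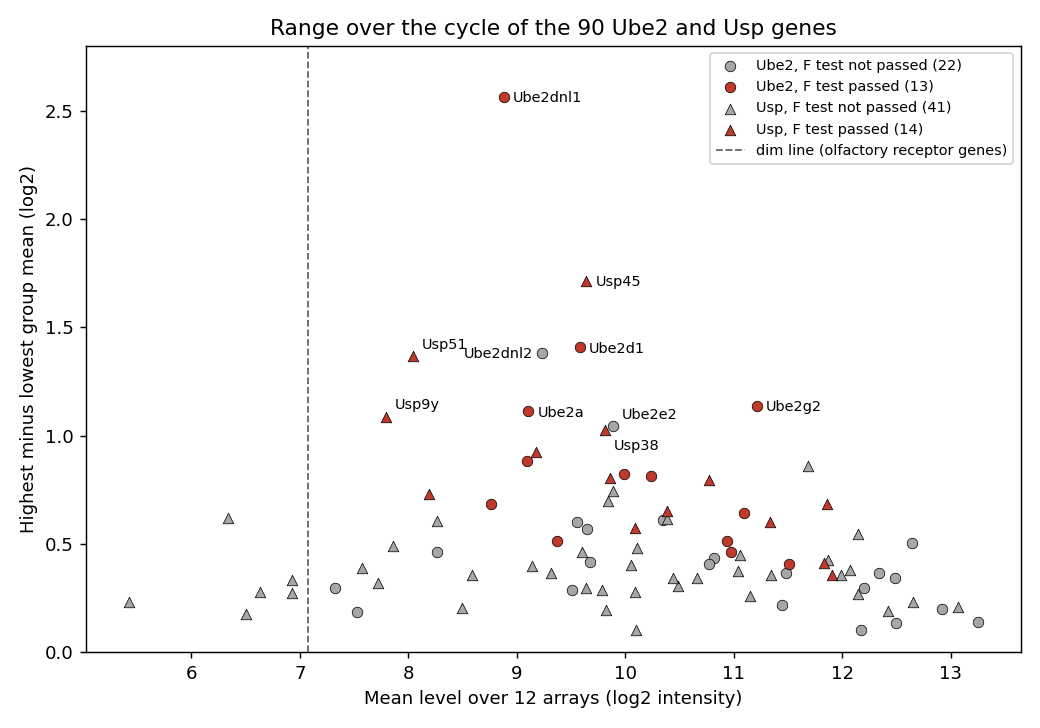
Range over the cycle (highest minus lowest group mean, log2) against the mean level over the 12 arrays (log2 intensity) for the 90 genes, with circles for Ube2 and triangles for Usp genes, red where the F test was passed. The dashed line is the dim line at 7.07, and most genes lie under a range of 1, with Ube2dnl1 highest.

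The 27 changed genes followed a few shapes along the cycle. Their mean was highest in XII-I for 10 genes (37.0%, against 31.9% of all changed genes) and in VIII-IX for 7 (25.9%, against 20.4%). Another 3 were highest in IX-XI, 3 in IV-VI, 2 in II-IV and 2 in VII. The lowest mean lay in IV-VI for 8 genes (29.6%, against 17.6%). These shares are descriptions and their differences from all changed genes were not tested.

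**Figure D2:**
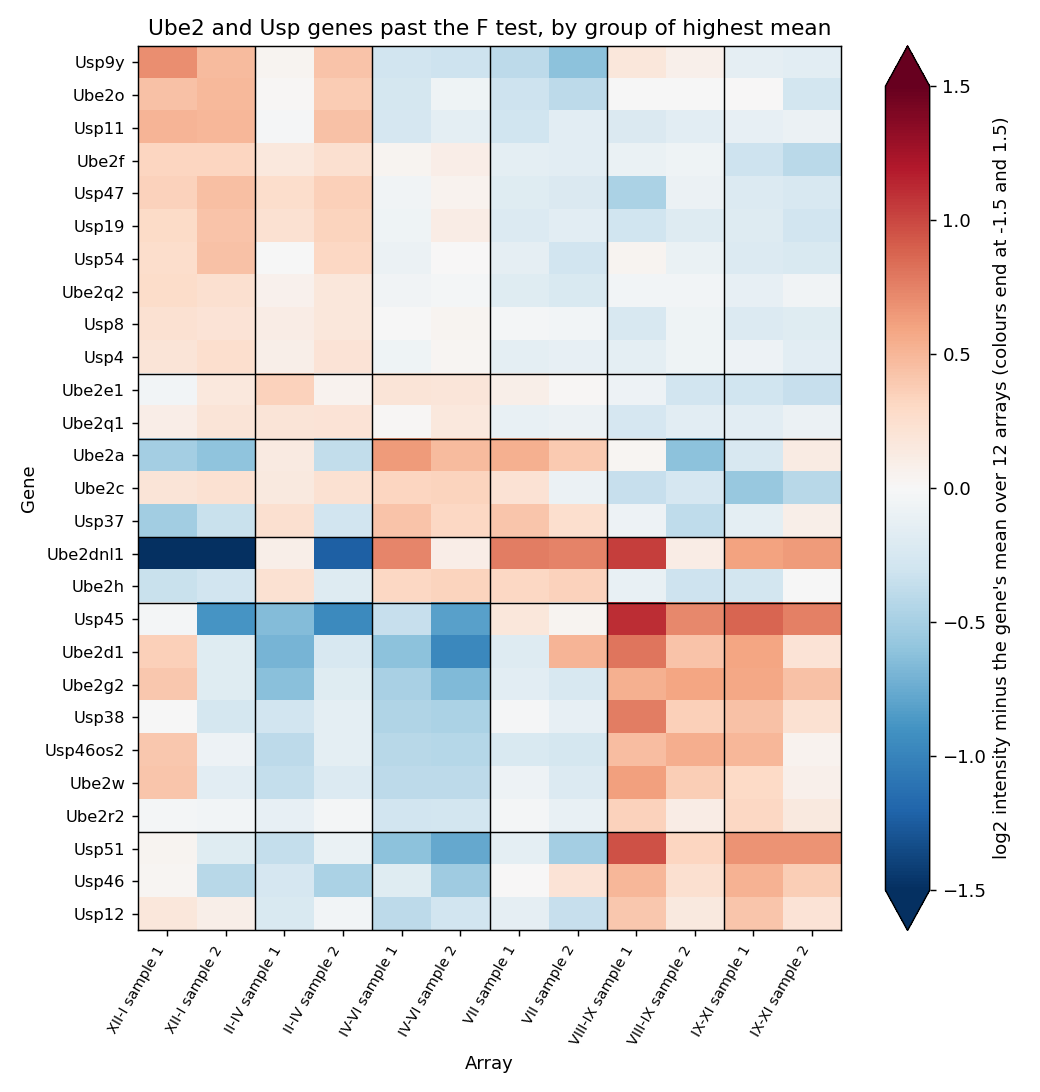
The 27 changed genes (rows, ordered by the group of their highest mean) on the 12 arrays (columns), coloured by log2 intensity minus the mean of the gene over the arrays, from blue (lower) to red (higher). The upper rows are red in XII-I and the lower rows are red in VIII-IX and IX-XI.

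**Figure D3:**
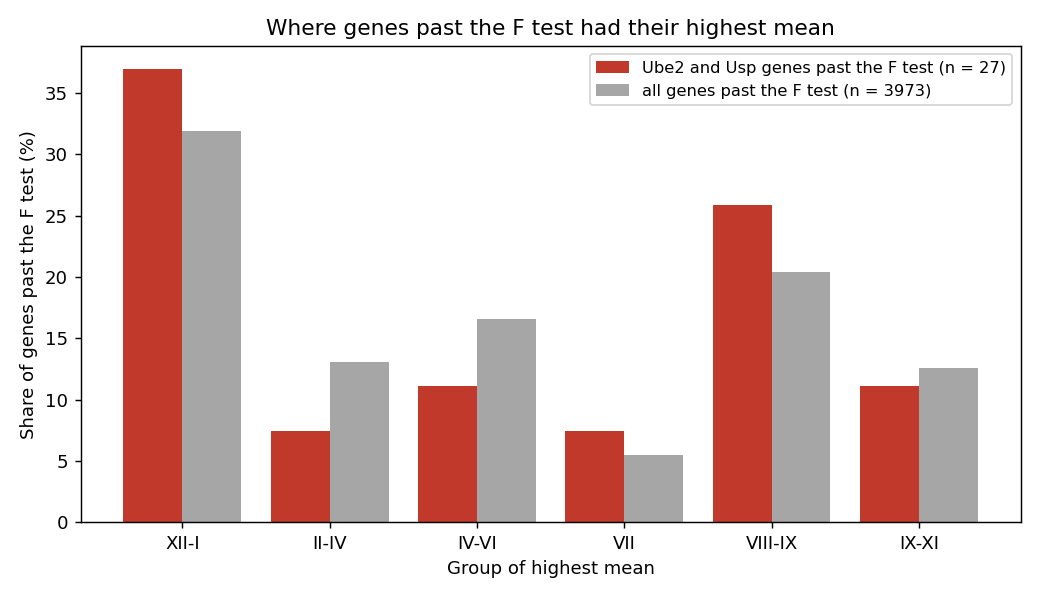
Share of changed genes (%) whose highest mean lay in each stage group, for the 27 changed Ube2 and Usp genes (red) and all 3973 changed genes (grey). XII-I holds the tallest bar of both sets, 37.0% and 31.9%.

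Of the 2 E2 enzymes of the anaphase-promoting complex, the ligase that drives cells through anaphase, Ube2c changed and was low in the late groups. Ube2c, which starts ubiquitin chains on its substrates, read 10.18 and 10.21 in XII-I, 10.13 and 10.21 in II-IV, 10.30 and 10.32 in IV-VI, 10.20 and 9.89 in VII, 9.64 and 9.73 in VIII-IX and 9.42 and 9.56 in IX-XI. All 4 samples of VIII-IX and IX-XI lay below all 8 others. Its mean was 1.77-fold higher in IV-VI than in IX-XI (adjusted p = 0.0126), and the call held in all 12 fits that left out 1 array. Ube2s, which lengthens those chains, read 12.64 and 12.64 in XII-I, 12.56 and 12.64 in II-IV, 12.56 and 12.61 in IV-VI, 12.42 and 12.30 in VII, 12.48 and 12.43 in VIII-IX and 12.34 and 12.26 in IX-XI. Both IX-XI samples and VII sample 2 were its 3 lowest, the range was 1.27-fold and the test was narrowly missed (adjusted p = 0.0522). It was passed with repeated quantile normalization (adjusted p = 0.032), array weights (0.035) and a trended and robust prior (0.020). The brightest probe set of Ube2s and its second one had their highest mean in XII-I and their lowest in IX-XI.

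Among the 7 E2 enzymes of DNA repair and chromatin, 2 changed, Ube2a and Ube2w. Ube2a and Ube2b are the mammalian forms of yeast RAD6, which ubiquitinates the replication clamp at stalled forks and histones in active chromatin, and male mice without Ube2b are infertile. Ube2a, on the X chromosome, read 8.60 and 8.50 in XII-I, 9.24 and 8.73 in II-IV, 9.74 and 9.58 in IV-VI, 9.64 and 9.50 in VII, 9.13 and 8.49 in VIII-IX and 8.87 and 9.22 in IX-XI. The 4 samples of IV-VI and VII were the highest and did not overlap the others, and XII-I was low with VIII-IX sample 2. Its mean was 2.16-fold higher in IV-VI than in XII-I (adjusted p = 0.0361), and the call was lost without either sample of XII-I, IV-VI, VII or IX-XI (adjusted p up to 0.1). Ube2b, on chromosome 11, read 11.40 and 11.26 in XII-I, 11.42 and 11.30 in II-IV, 11.37 and 11.41 in IV-VI, 11.48 and 11.55 in VII, 11.74 and 11.64 in VIII-IX and 11.65 and 11.52 in IX-XI. The spread over all its samples was narrow, the range was 1.29-fold and the test was not passed (adjusted p = 0.0797). The 2 genes thus had their highest means in different groups, IV-VI for Ube2a and VIII-IX for Ube2b, and the difference between their patterns was not tested.
Ube2w, which can place ubiquitin on the amino terminus of a protein, read 9.50 and 8.93 in XII-I, 8.73 and 8.89 in II-IV, 8.70 and 8.70 in IV-VI, 9.01 and 8.88 in VII, 9.71 and 9.46 in VIII-IX and 9.39 and 9.17 in IX-XI. XII-I sample 1 was as high as the late samples while XII-I sample 2 was not. The mean was 1.84-fold higher in VIII-IX than in IV-VI (adjusted p = 0.0376), and the call was lost without either sample of IV-VI, VII, VIII-IX or IX-XI or II-IV sample 1 (adjusted p up to 0.11). Ube2n builds the lysine-linked chains of DNA damage signalling together with Ube2v1 or Ube2v2, which resemble E2 enzymes but lack the catalytic cysteine. Ube2n had a range of 1.29-fold (adjusted p = 0.116) and Ube2v1 of 1.35-fold (adjusted p = 0.109), and neither passed. Ube2t, the E2 of the Fanconi anaemia pathway, and Ube2v2 did not pass either.

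The list of broad-acting E2 enzymes held the widest range of the set, that of Ube2dnl1. Whether Ube2dnl1 acts as such an enzyme was not tested. Of 10 measured, 3 changed: Ube2dnl1, Ube2d1 and Ube2e1. Ube2dnl1 is an X-linked gene with a sequence like the start of the Ube2d enzymes, and it read 6.84 and 7.31 in XII-I, 8.97 and 7.66 in II-IV, 9.61 and 8.98 in IV-VI, 9.65 and 9.62 in VII, 9.92 and 8.98 in VIII-IX and 9.48 and 9.51 in IX-XI. Both XII-I samples and II-IV sample 2 lay below all others, and the 2 samples of II-IV were 1.31 apart. The XII-I mean was 7.07, at the dim line, and XII-I sample 1 lay under that line. The mean was 5.91-fold higher in VII than in XII-I (adjusted p = 0.02), and the call was lost without XII-I sample 1 (adjusted p = 0.067). Its X-linked neighbour Ube2dnl2 read 7.64 and 8.88 in XII-I, 9.61 and 9.10 in II-IV, 9.70 and 9.58 in IV-VI, 9.67 and 9.48 in VII, 9.57 and 8.55 in VIII-IX and 9.38 and 9.60 in IX-XI. The lowest value again lay in XII-I, but in sample 1 only, and VIII-IX sample 2 was lower than XII-I sample 2. Ube2dnl2 did not pass the F test (adjusted p = 0.15). Probe sets of such near copies may read both genes, and whether they do so here was not tested.
Ube2d1, a partner of many ligases in the test tube, read 9.94 and 9.40 in XII-I, 8.88 and 9.34 in II-IV, 8.96 and 8.61 in IV-VI, 9.38 and 10.09 in VII, 10.38 and 10.001 in VIII-IX and 10.18 and 9.79 in IX-XI. The 4 samples of VIII-IX and IX-XI, VII sample 2 and XII-I sample 1 were high, and IV-VI and II-IV sample 1 were low. VII sample 2 is also the array with the highest Leydig cell and macrophage marker sums, and their part in its Ube2d1 value was not tested. The mean was 2.66-fold higher in VIII-IX than in IV-VI (adjusted p = 0.0383), and the call was lost without either sample of IV-VI, VIII-IX or IX-XI or II-IV sample 1 (adjusted p up to 0.12). Ube2e1 had a smaller range, 1.43-fold from IX-XI to II-IV, and only just passed (adjusted p = 0.0499); the call was lost without either sample of XII-I, IV-VI, VII, VIII-IX or IX-XI (adjusted p up to 0.16), and also with a trended and robust prior (adjusted p = 0.065). Ube2d2a, Ube2d3 and Ube2l3, which work with large classes of ligases, did not pass, and their ranges were 1.10-fold, 1.10-fold and 1.23-fold. Ube2e2 ranged 2.06-fold without passing (adjusted p = 0.0641), with values of 9.19 and 9.24 in XII-I and 10.37 and 10.14 in IV-VI. It falls outside the rule for named genes and was chosen after its values were seen.

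Of the 5 E2 enzymes that serve quality control in the endoplasmic reticulum, Ube2g2 changed. It works with membrane-bound ligases that clear misfolded proteins, and it read 11.62 and 11.02 in XII-I, 10.59 and 11.03 in II-IV, 10.72 and 10.55 in IV-VI, 11.05 and 10.97 in VII, 11.74 and 11.80 in VIII-IX and 11.79 and 11.64 in IX-XI. All samples of VIII-IX and IX-XI lay above all others, with XII-I sample 1 the next. The mean was 2.2-fold higher in VIII-IX than in IV-VI (adjusted p = 0.0188), and the call was lost without either sample of VIII-IX or IV-VI sample 2 (adjusted p up to 0.051). Ube2j1, which acts in the same pathway and is needed for sperm formation in the mouse, read 12.93 and 12.93 in XII-I, 12.82 and 12.96 in II-IV, 12.84 and 12.87 in IV-VI, 12.88 and 12.81 in VII, 13.09 and 13.01 in VIII-IX and 12.998 and 12.89 in IX-XI. The VIII-IX samples lay just above all others, and the test was not passed (adjusted p = 0.459).

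The E2 enzymes of other modifiers gave 1 of 3. Ube2f, which passes the ubiquitin-like protein Nedd8 to a cullin, read 9.09 and 9.09 in XII-I, 8.92 and 9.002 in II-IV, 8.80 and 8.87 in IV-VI, 8.61 and 8.60 in VII, 8.67 and 8.69 in VIII-IX and 8.46 and 8.35 in IX-XI. The SD over the 2 samples of a group was 0.001 to 0.074. Both XII-I samples were the highest and both IX-XI samples the lowest. The mean was 1.61-fold higher in XII-I than in IX-XI (adjusted p = 0.0111), and the call held in all 12 fits that left out 1 array.

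The remaining Ube2 genes gave 5 of 8. Ube2h, the E2 of the CTLH ligase complex, read 10.75 and 10.81 in XII-I, 11.31 and 10.89 in II-IV, 11.40 and 11.43 in IV-VI, 11.40 and 11.44 in VII, 10.98 and 10.78 in VIII-IX and 10.82 and 11.08 in IX-XI. The samples of IV-VI and VII lay together at the top, with II-IV sample 1 close by, and XII-I was low along with VIII-IX sample 2 and IX-XI sample 1. The mean was 1.56-fold higher in VII than in XII-I (adjusted p = 0.0365), and the call was lost without either sample of XII-I, IV-VI, VII, VIII-IX or IX-XI (adjusted p up to 0.096). The second probe set of Ube2h also had its highest mean in VII and its lowest in XII-I. Ube2o, a large enzyme that acts as E2 and ligase at once, read 10.67 and 10.72 in XII-I, 10.26 and 10.62 in II-IV, 9.97 and 10.17 in IV-VI, 9.93 and 9.84 in VII, 10.22 and 10.23 in VIII-IX and 10.24 and 9.96 in IX-XI. The XII-I samples were the highest, II-IV sample 2 was near them and VII was lowest. The XII-I mean was 1.76 times the VII mean (adjusted p = 0.0258), and the call was lost without either sample of XII-I or VIII-IX, IV-VI sample 1 or VII sample 2 (adjusted p up to 0.063). Ube2q2 ranged 1.38-fold from VII to XII-I (adjusted p = 0.0263); the call was lost without either sample of XII-I, IV-VI, VIII-IX or IX-XI or VII sample 2 (adjusted p up to 0.072). Ube2r2, an E2 of cullin ligases, ranged 1.43-fold from IV-VI to VIII-IX (adjusted p = 0.033); the call was lost without either sample of IV-VI or IX-XI, XII-I sample 1, VII sample 2 or VIII-IX sample 1 (adjusted p up to 0.1). Ube2q1 is named although the rule left it out, since it completes the count of 5. It ranged 1.33-fold from VIII-IX to II-IV (adjusted p = 0.0342); the call was lost without either sample of II-IV, IV-VI, VII, VIII-IX or IX-XI or XII-I sample 2 (adjusted p up to 0.077).

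**Figure D4:**
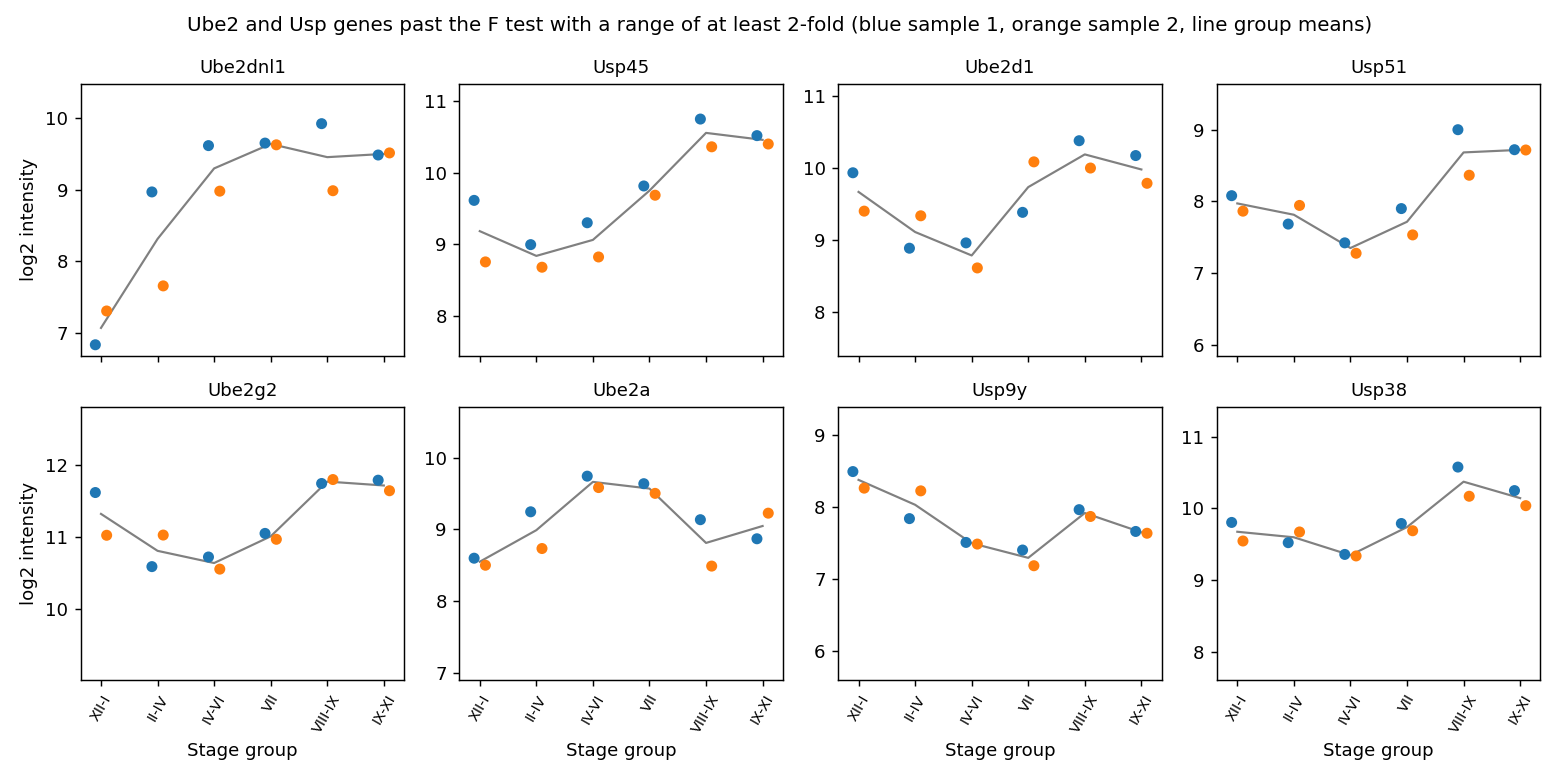
Log2 intensity by stage group, in cycle order, for the 8 changed genes with a range of at least 2-fold, with sample 1 in blue, sample 2 in orange and a line through the group means. Each panel spans its own part of the scale: Ube2dnl1 starts at 6.84 and 7.31 in XII-I, and Usp45, Ube2d1, Usp51, Ube2g2 and Usp38 are highest in VIII-IX or IX-XI.

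Among the Usp proteases of DNA repair, chromatin and division, 4 of 15 changed. Usp51, an X-linked protease of ubiquitinated histones, read 8.08 and 7.86 in XII-I, 7.68 and 7.94 in II-IV, 7.42 and 7.28 in IV-VI, 7.90 and 7.53 in VII, 8.999 and 8.36 in VIII-IX and 8.72 and 8.72 in IX-XI. All 4 samples of VIII-IX and IX-XI lay above the others and IV-VI was lowest. The mean was 2.58-fold higher in IX-XI than in IV-VI (adjusted p = 0.0146), and the call held in all 12 fits that left out 1 array. Usp11, also X-linked and known from homologous recombination, showed another shape and read 8.70 and 8.69 in XII-I, 8.17 and 8.63 in II-IV, 7.94 and 8.04 in IV-VI, 7.89 and 8.03 in VII, 7.97 and 8.03 in VIII-IX and 8.07 and 8.10 in IX-XI. XII-I and II-IV sample 2 were high and every other sample was lower. The XII-I mean was 1.66 times the VII mean (adjusted p = 0.0246), and the call was lost without either sample of XII-I, IV-VI, VIII-IX or IX-XI (adjusted p up to 0.071). Usp47, which acts in base excision repair, read 12.20 and 12.31 in XII-I, 12.12 and 12.22 in II-IV, 11.80 and 11.90 in IV-VI, 11.67 and 11.64 in VII, 11.38 and 11.77 in VIII-IX and 11.65 and 11.62 in IX-XI. The 4 samples of XII-I and II-IV were the highest and did not overlap any other. The mean was 1.61-fold higher in XII-I than in VIII-IX (adjusted p = 0.0188), and the call held in all 12 fits that left out 1 array. Usp37, which removes ubiquitin from cyclin A, read 10.25 and 10.43 in XII-I, 11.003 and 10.48 in II-IV, 11.19 and 11.08 in IV-VI, 11.18 and 11.01 in VII, 10.69 and 10.39 in VIII-IX and 10.62 and 10.86 in IX-XI. The samples of IV-VI and VII were the highest, just above II-IV sample 1, and XII-I sample 1 was the lowest. The mean was 1.74-fold higher in IV-VI than in XII-I (adjusted p = 0.0493), and the call was lost without either sample of XII-I, IV-VI, VII, VIII-IX or IX-XI (adjusted p up to 0.13).
Members of this role known from meiosis did not pass. Usp1, which acts on the Fanconi protein Fancd2 and is needed for male fertility, ranged 1.14-fold (adjusted p = 0.392). Usp44, a regulator of the spindle checkpoint, ranged 1.2-fold (adjusted p = 0.184). Usp7, which stabilises Mdm2 and many other proteins, ranged 1.46-fold from XII-I to VII (adjusted p = 0.0605).

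None of the 3 Usp genes of the proteasome and of ubiquitin recycling changed by limma's F test, and 0 had an unadjusted p under 0.05. Usp14, the protease that sits on the proteasome, read 10.12 and 9.94 in XII-I, 10.21 and 10.03 in II-IV, 10.11 and 10.12 in IV-VI, 10.07 and 10.20 in VII, 10.17 and 10.08 in VIII-IX and 10.06 and 10.02 in IX-XI. Its groups overlapped and none stood apart (adjusted p = 0.893).

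Of 8 Usp genes of membranes, endosomes and organelles, 2 changed, and both were highest in XII-I. Usp19, an enzyme anchored in the endoplasmic reticulum, read 11.62 and 11.76 in XII-I, 11.56 and 11.66 in II-IV, 11.26 and 11.44 in IV-VI, 11.13 and 11.18 in VII, 11.04 and 11.14 in VIII-IX and 11.13 and 11.04 in IX-XI. The 4 samples of XII-I and II-IV lay above all others, IV-VI came next and the last 3 groups overlapped. The mean was 1.52-fold higher in XII-I than in VIII-IX (adjusted p = 0.0141), and the call held in all 12 fits that left out 1 array. Usp8, which works on endosomes and has been placed at the forming acrosome, read 12.05 and 12.04 in XII-I, 11.94 and 11.99 in II-IV, 11.82 and 11.87 in IV-VI, 11.80 and 11.79 in VII, 11.59 and 11.76 in VIII-IX and 11.62 and 11.64 in IX-XI. XII-I was highest, II-IV came next, and the 4 samples of VIII-IX and IX-XI lay below the 8 others. The mean was 1.33-fold higher in XII-I than in IX-XI (adjusted p = 0.0343), and the call was lost without either sample of XII-I, IV-VI, VII or IX-XI, II-IV sample 2 or VIII-IX sample 1 (adjusted p up to 0.093).

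Of the 12 Usp genes known from germ cells 1 changed, and 4 of the 12 were dim. Usp9y, on the Y chromosome, read 8.49 and 8.26 in XII-I, 7.84 and 8.23 in II-IV, 7.51 and 7.48 in IV-VI, 7.40 and 7.18 in VII, 7.96 and 7.87 in VIII-IX and 7.66 and 7.63 in IX-XI. XII-I and II-IV sample 2 were the highest and the VII samples the lowest. The XII-I mean was 2.13 times the VII mean (adjusted p = 0.0133), and the call held in all 12 fits that left out 1 array. Usp9x, the X-linked copy of the same protease, read 10.54 and 10.65 in XII-I, 10.86 and 10.62 in II-IV, 10.81 and 10.72 in IV-VI, 10.76 and 10.95 in VII, 10.54 and 10.48 in VIII-IX and 10.44 and 10.59 in IX-XI. Its groups lay close together, the range was 1.27-fold and the test was not passed (adjusted p = 0.157). Usp25 read 11.48 and 10.88 in XII-I, 11.59 and 10.86 in II-IV, 11.90 and 11.65 in IV-VI, 11.96 and 11.81 in VII, 12.04 and 11.94 in VIII-IX and 12.01 and 12.06 in IX-XI. The second samples of XII-I and II-IV were low and the late samples high and close together. The range was 1.81-fold and the test was not passed (adjusted p = 0.0683). Usp26, an X-linked gene known from the testis, had its highest mean in IV-VI and its lowest in IX-XI, 1.52-fold apart (adjusted p = 0.0992). Usp2, which is needed for normal sperm function, ranged 1.16-fold (adjusted p = 0.34). Usp17la, Usp17lb and Usp17lc were dim, and as members of a family of many near copies their probe sets may read several genes.

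Among the 16 other Usp genes, 6 changed. Usp45, which acts on the repair nuclease subunit Ercc1, had the widest range of any Usp gene and read 9.61 and 8.75 in XII-I, 8.99 and 8.68 in II-IV, 9.30 and 8.82 in IV-VI, 9.81 and 9.68 in VII, 10.75 and 10.36 in VIII-IX and 10.52 and 10.40 in IX-XI. All 4 samples of VIII-IX and IX-XI lay above the other 8, and XII-I sample 1 was well above XII-I sample 2. The mean was 3.28-fold higher in VIII-IX than in II-IV (adjusted p = 0.0143), and the call held in all 12 fits that left out 1 array. Usp38 read 9.80 and 9.54 in XII-I, 9.52 and 9.67 in II-IV, 9.36 and 9.34 in IV-VI, 9.79 and 9.69 in VII, 10.57 and 10.17 in VIII-IX and 10.25 and 10.04 in IX-XI. Again the 4 late samples were the highest, and IV-VI was lowest. The mean was 2.03-fold higher in VIII-IX than in IV-VI (adjusted p = 0.0166), and the call held in all 12 fits that left out 1 array.
Usp46 and Usp12 are close relatives that both need the partner protein Wdr48 for activity. Usp46 read 9.89 and 9.44 in XII-I, 9.61 and 9.38 in II-IV, 9.68 and 9.33 in IV-VI, 9.87 and 10.07 in VII, 10.35 and 10.10 in VIII-IX and 10.38 and 10.22 in IX-XI. Usp12 read 10.56 and 10.47 in XII-I, 10.15 and 10.35 in II-IV, 9.99 and 10.10 in IV-VI, 10.25 and 10.04 in VII, 10.79 and 10.54 in VIII-IX and 10.80 and 10.59 in IX-XI. In both genes IX-XI had the highest mean and the late samples were the highest or nearly so. Usp46 was 1.75-fold higher in IX-XI than in II-IV (adjusted p = 0.0321), and the call was lost without either sample of VIII-IX or IX-XI, IV-VI sample 2 or VII sample 2 (adjusted p up to 0.084). Usp12 was 1.57-fold higher in IX-XI than in IV-VI (adjusted p = 0.025), and the call was lost without either sample of IV-VI, VIII-IX sample 1 or IX-XI sample 1 (adjusted p up to 0.069). The transcript opposite Usp46, Usp46os2, read 9.58 and 9.11 in XII-I, 8.78 and 9.03 in II-IV, 8.76 and 8.74 in IV-VI, 8.95 and 8.91 in VII, 9.63 and 9.72 in VIII-IX and 9.67 and 9.23 in IX-XI. Of its 4 late samples 3 were high, as was XII-I sample 1. Its mean was 1.9-fold higher in VIII-IX than in IV-VI (adjusted p = 0.0292), and the call was lost without either sample of IV-VI or VIII-IX or VII sample 2 (adjusted p up to 0.08). Whether the probe sets of Usp46 and Usp46os2 tell the strands apart was not tested.
The last 2 genes were highest in XII-I. Usp54, which is thought to be an inactive relative of the proteases, ranged 1.49-fold from IX-XI to XII-I (adjusted p = 0.0433); the call was lost without either sample of XII-I, IV-VI, VII, VIII-IX or IX-XI (adjusted p up to 0.12) and with repeated quantile normalization (adjusted p = 0.071). Usp4 ranged 1.28-fold from VII to XII-I (adjusted p = 0.044); the call was lost without either sample of XII-I, IV-VI, VII, VIII-IX or IX-XI or II-IV sample 2 (adjusted p up to 0.11), and it was also lost under both rescalings, each with an adjusted p of 0.056, and with array weights, at 0.057.

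The genes described next did not pass limma's F test and are given by their ranges. Among the E2 enzymes the ranges were 1.07-fold for Ube2k, 1.14-fold for Ube2ql1, 1.17-fold for Ube2u and 1.22-fold for Ube2g1. They were wider for Ube2z at 1.33-fold, Ube2e3 at 1.33-fold, Ube2d2b at 1.42-fold and Ube2j2 at 1.52-fold. Ube2t ranged 1.49-fold and Ube2v2 1.53-fold. Ube2cbp, the ligase that binds Ube2c, ranged 1.38-fold. Ube2l6, the E2 of the interferon-induced modifier Isg15, lay between 7.12 and 7.41 on 11 arrays and at 7.93 on VII sample 2, the array with the highest macrophage marker sum. Usp22, the histone protease of the SAGA complex, was also highest on that array, at 10.39 against 9.86 on VII sample 1. The part of other cells in both values was not tested.
Of the chromatin proteases, Usp3, which acts on ubiquitinated histones, came closest to passing. It read 10.32 and 9.96 in XII-I, 9.75 and 10.06 in II-IV, 9.38 and 9.52 in IV-VI, 9.54 and 9.77 in VII, 10.19 and 10.20 in VIII-IX and 10.16 and 9.78 in IX-XI. VIII-IX, IX-XI sample 1 and XII-I sample 1 were high and IV-VI was low, with a range of 1.67-fold (adjusted p = 0.0548). Usp21, Usp24, Usp28 and Usp48 ranged 1.2-fold, 1.27-fold, 1.22-fold and 1.32-fold. Usp16, a protease of ubiquitinated histone H2A, ranged 1.28-fold (adjusted p = 0.0553), and the X-linked Usp27x 1.15-fold. Usp30, which sits on mitochondria, ranged 1.53-fold from II-IV to VIII-IX (adjusted p = 0.0736). Of the other membrane and organelle genes, Usp10 ranged 1.38-fold, Usp20 1.23-fold, Usp32 1.3-fold and Usp33 1.29-fold. Usp5, which takes apart free ubiquitin chains, ranged 1.14-fold. The germ cell genes Usp17ld, Usp42 and Usp50 ranged 1.31-fold, 1.28-fold and 1.17-fold. Among the rest, Usp53 ranged 1.62-fold, and Usp15, Usp18, Usp31, Usp34, Usp36, Usp39, Usp40 and Usp43 ranged 1.23-fold to 1.4-fold. A second, less bright probe set of Usp31 had a wider range, 0.75 in log2, with its highest mean in IX-XI. Usp16, Usp32, Usp34 and Usp53 were among the 15 genes called higher when XII-I was set against the mean of the other 5 groups.

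When each group was set against the mean of the other 5 groups, XII-I had the most calls, but that order did not hold in every fit. With array weights XII-I had 7 genes (2.77% of all genes were called), IV-VI 22 (15.2%) and IX-XI 21 (12.2%), and without XII-I sample 1 it had 0 and VIII-IX 15. The array weights were the same for both samples of a group and were highest for IV-VI and IX-XI. Of the 15552 genes above the dim line, 1451 were higher in XII-I and 648 were lower. Higher in XII-I were 15 of the 90 genes (16.7%, against 7.51% of all genes) and lower were 6 (6.67%, against 3.33%). With the arrays quantile normalized again the split was 8 higher and 8 lower, and with each array centred on its median it was 10 and 5. Of all genes, 10.1% were called in XII-I under each of these settings, in either direction. The differences of the higher genes, relative to the other groups, ran from 0.26 ± 0.07 for Usp16 to 0.70 ± 0.11 for Usp9y. They took in Usp11 at 0.61 ± 0.10, Ube2o at 0.56 ± 0.11, Usp47 at 0.48 ± 0.09, Usp19 at 0.43 ± 0.07 and Ube2f at 0.39 ± 0.06. The adjusted p of these 7 genes lay between 0.021 and 0.043. The lower genes were Ube2dnl1 at -2.17 ± 0.33, Ube2dnl2 at -1.17 ± 0.31, Ube2e2 at -0.81 ± 0.19, Ube2a at -0.67 ± 0.18, Usp37 at -0.51 ± 0.14 and Usp7 at -0.37 ± 0.10, with adjusted p between 0.021 and 0.049. Usp16 and Ube2e2 did not pass the F test and were chosen after their values were seen. Errors after each difference are SEs from the fit.
Markers of germ cell phases and some markers of other tissues also differed between XII-I and some other groups. The summed level of 5 meiotic division markers, Plk1, Aurka, Ccna1, Cdc25c and Cenpe, was 14.22 to 14.24 in XII-I. It was 13.7 to 14.2 in II-IV and 12.58 to 13.07 in IX-XI. All 5 changed, 4 of them were called higher in XII-I, and Cdc25c was not, with its highest mean in II-IV. That of 5 round spermatid markers was 12.32 to 13.47 in XII-I and 14.64 to 14.83 in IV-VI and VII, and 3 of the 5 changed. In VIII-IX it was 13.38 to 14.08, which overlaps XII-I. All these germ cell markers lay above the dim line. Alas2, an enzyme of haem synthesis in red cell precursors and the only measured marker of blood, was higher in XII-I (1.28 ± 0.28, adjusted p = 0.029) and lower in VIII-IX (-1.36 ± 0.28, adjusted p = 0.028) and IX-XI (-1.31 ± 0.28, adjusted p = 0.042). Its values were 9.42 and 10.27 in XII-I, 10.05 and 10.33 in II-IV, and 7.36 to 7.93 over the 4 samples of VIII-IX and IX-XI. Of the 4 epididymal markers, Rnase10 was also higher in XII-I (1.25 ± 0.25, adjusted p = 0.023). Defb42, Lcn5 and Lcn8 were not called there (-0.28, 0.16 and -0.001), and Defb42 had its lowest mean in XII-I. The summed level of the 4 was 8.86 to 9.19 in XII-I and 8.27 to 8.93 elsewhere. The part of all these markers in the XII-I results was not tested. With all 12 arrays 10.8% of all genes were called in XII-I. That share was lower in each of the fits named with counts below. None of the XII-I calls held in every fit that left out 1 array. The total of 21 fell to 0 without XII-I sample 1 and to 3 without XII-I sample 2, to 8 or 11 without IV-VI sample 1 or 2, and to 10 or 12 without VII sample 1 or 2. It was 9 without VIII-IX sample 1, and 10 or 8 without IX-XI sample 1 or 2.

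The other groups gave fewer calls. Of the 15552 genes above the dim line, 670 were higher in VIII-IX and 835 were lower. Of the 90, 6 genes were higher there (6.67%, against 3.53% of all genes) and 2 were lower (2.22%, against 4.31%). The higher genes were Usp45 at 1.09 ± 0.21, Usp51 at 0.77 ± 0.16, Ube2g2 at 0.68 ± 0.15, Usp38 at 0.67 ± 0.11, Usp46os2 at 0.60 ± 0.14 and Ube2w at 0.59 ± 0.14, with adjusted p of 0.017 to 0.035. Lower in VIII-IX were Ube2c at -0.36 ± 0.09 and Usp19 at -0.29 ± 0.07. With repeated quantile normalization 8 genes were higher and 0 lower, and with median centring 6 and 0. Of all genes, 8.42% and 7.92% were called there under these settings, in either direction. In IX-XI, Usp45 and Usp51 were higher (2.22%, against 1.90%), by 0.98 ± 0.21 and 0.81 ± 0.16. Ube2c and Ube2f were lower there (2.22%, against 1.79%), at -0.59 ± 0.09 and -0.43 ± 0.06. Of the 15552 genes above the dim line, 350 were higher in IX-XI and 356 were lower. The summed level of the 4 spermatid condensation markers, Tnp1, Tnp2, Prm1 and Prm2, was 15.43 to 15.47 in VIII-IX and 14.49 to 14.60 in IV-VI, with 2 of 4 changed. The macrophage marker Adgre1 was lower in VIII-IX (-0.60 ± 0.13, adjusted p = 0.032), where the sum of the 5 macrophage markers was 10.62 to 10.71 against 10.46 to 11.28 elsewhere. Cd68, Csf1r, Cd163 and Mrc1 were not called there (0.098, -0.24, -0.033 and -0.135). The part of these markers and of Alas2 in the VIII-IX and IX-XI results was not tested. No gene of the 90, and none of all genes, was called in II-IV, IV-VI or VII by limma with all 12 arrays at equal weight. At an unadjusted p under 0.05 there were 28 of the 90 in II-IV (31.1%, against 17.2% of all genes), 29 in IV-VI (32.2%, against 20.4%) and 25 in VII (27.8%, against 19.9%). Among genes above the dim line the shares were 20.7% in II-IV, 24.4% in IV-VI and 24.1% in VII. The counts of 0 in these groups did not hold in every fit. In the fits named next the share of all genes called also rose from 0, to 15.2% in IV-VI with array weights. In II-IV, and in VII without VII sample 1, that share was above the share of the 90 genes called. IV-VI had 22 genes with array weights, 15 without II-IV sample 1 and 10 without XII-I sample 2. Leaving out XII-I sample 2 gave 4 genes in II-IV, and leaving out sample 1 of that group gave 1. VII had 5 without II-IV sample 1 and 2 without VII sample 1.
The VIII-IX count of 8 fell to 0 without VIII-IX sample 1 and to 3 without VIII-IX sample 2, to 4 without IV-VI sample 1 or VII sample 2, and to 2 without IV-VI sample 2 or IX-XI sample 2. It rose to 15 without XII-I sample 1. The IX-XI count of 4 fell to 0 without either IX-XI sample and to 2 without IV-VI sample 2, and it was 7 without XII-I sample 1. With all 12 arrays 7.84% of all genes were called in VIII-IX and 3.69% in IX-XI. Both shares moved the same way as these counts in the same fits. The groups share their comparison samples, so the calls of different groups are not independent of each other.

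Of the 90 genes, 8 lie on the X chromosome, all above the dim line, and 4 of those 8 changed. Of all 739 X-linked genes 20.3% changed, and of those above the dim line 27.2%. Usp9y was the Y-linked gene. On the autosomes 21 of 80 changed (26.2%). The X and Y chromosomes are silenced during the long prophase of male meiosis and some of their genes are read again in spermatids. The X-linked genes did not share a shape. Ube2dnl1 and Ube2a were lowest in XII-I, Usp11 was highest there, and Usp51 was highest in IX-XI. Ube2dnl2, Usp9x, Usp26 and Usp27x did not pass. With 8 genes, of which 2 are near copies, the share for the X chromosome is a description.

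**Figure D5:**
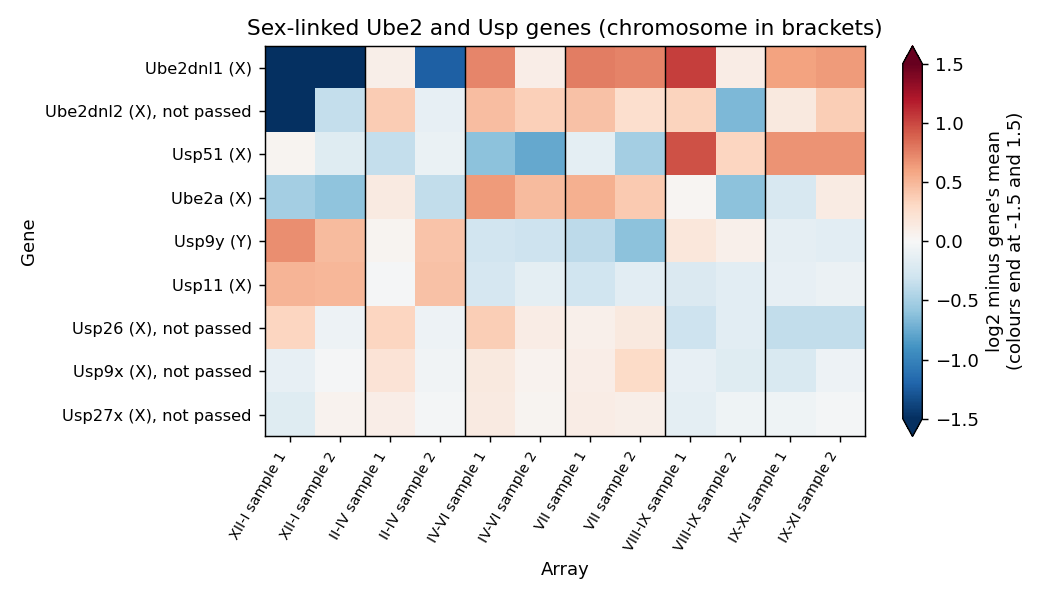
The 8 X-linked and 1 Y-linked genes (rows) on the 12 arrays (columns), coloured by log2 intensity minus the mean of the gene, with the genes that did not pass the F test marked. Ube2dnl1 is dark blue in XII-I while Usp9y and Usp11 are red there.

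For 12 of the 90 genes the array holds further probe sets with 1 symbol, 16 in all. Of these, 9 had their highest mean in the same group as the probe set used, 13 their lowest and 8 both. Among the changed genes, Ube2h, Ube2q2 and Usp54 had a second probe set, and in all 3 it had its highest and its lowest mean in the same groups as the first. One probe set of Ube2v1 lay at 5.41, under the dim line.

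Other genes of the ubiquitin pathway were taken from lists by function, and 29 of 103 measured genes changed (28.2%, against 19.9% of all genes and 24.5% of genes above the dim line). Of 6 ubiquitin and E1 genes, 1 changed. It was Uba1y, the Y-linked form of the main activating enzyme, at 1.69-fold higher in IV-VI than in VIII-IX (adjusted p = 0.0314), and the call was lost without either sample of IV-VI, VIII-IX or IX-XI or VII sample 2 (adjusted p up to 0.086). Of 8 E2-like genes with other symbols, 3 changed: Aktip at 2.21-fold and Cdc34, the E2 of cullin ligases, at 1.7-fold were highest in VIII-IX, and Uevld at 1.41-fold was highest in XII-I. Their adjusted p lay between 0.0205 and 0.0422. For Aktip the call was lost without either sample of VIII-IX or VII sample 2 (adjusted p up to 0.055), for Cdc34 the call was lost without either sample of IV-VI, VII, VIII-IX or IX-XI or XII-I sample 1 (adjusted p up to 0.11), and for Uevld the call was lost without either sample of IX-XI (adjusted p up to 0.061).
Deubiquitinases outside the Usp family changed in 9 of 32 cases. Otud1, an OTU protease, read 9.32 and 8.26 in XII-I, 8.26 and 8.15 in II-IV, 8.70 and 8.06 in IV-VI, 9.26 and 8.96 in VII, 10.39 and 9.90 in VIII-IX and 10.22 and 9.91 in IX-XI. The 4 late samples were the highest, as for Usp45, and the mean was 3.84-fold higher in VIII-IX than in II-IV (adjusted p = 0.0182), and the call held in all 12 fits that left out 1 array. Alg13, an X-linked gene of protein glycosylation whose long form holds an OTU domain, read 8.85 and 9.51 in XII-I, 9.58 and 9.62 in II-IV, 9.12 and 9.43 in IV-VI, 8.74 and 8.54 in VII, 7.79 and 7.62 in VIII-IX and 7.82 and 7.95 in IX-XI. There the 4 late samples were the lowest, and the mean was 3.73-fold higher in II-IV than in VIII-IX (adjusted p = 0.00793), and the call held in all 12 fits that left out 1 array. In Josd1 the XII-I mean was 2.19 times the VII mean (adjusted p = 0.0291), and the call was lost without either sample of VII, VIII-IX or IX-XI, XII-I sample 1 or IV-VI sample 1 (adjusted p up to 0.093).
Ligases and partners of the enzymes changed in 11 of 40 cases. Rnf40, the ligase that works with Ube2a and Ube2b on histones, read 11.59 and 11.66 in XII-I, 11.15 and 11.54 in II-IV, 10.64 and 11.04 in IV-VI, 10.47 and 10.48 in VII, 10.80 and 11.11 in VIII-IX and 10.93 and 10.57 in IX-XI. XII-I and II-IV sample 2 were high and VII was low, and the XII-I mean was 2.22 times the VII mean (adjusted p = 0.023), whereas Ube2a was lowest in XII-I. For Rnf40 the call was lost without XII-I sample 1 or VII sample 2 (adjusted p up to 0.056). Ubr1, a ligase that reads the amino termini of proteins and also partners with the RAD6 enzymes, was 1.82-fold higher in XII-I than in IV-VI (adjusted p = 0.0171), and the call held in all 12 fits that left out 1 array. Siah1a was 1.61-fold higher in VIII-IX than in II-IV (adjusted p = 0.0427), and the call was lost without either sample of IV-VI, VII, VIII-IX or IX-XI or II-IV sample 2 (adjusted p up to 0.097). Ubiquitin-like modifiers and their proteases changed in 5 of 17 cases. Nedd8, the modifier that Ube2f carries, was 1.41-fold higher in II-IV than in VIII-IX (adjusted p = 0.0253), and the call was lost without either sample of VIII-IX or IX-XI (adjusted p up to 0.061). Senp1 and Senp2, which remove SUMO, were highest in XII-I, with ranges of 1.45-fold and 1.51-fold (adjusted p = 0.0261 and 0.0347). For Senp1 the call was lost without either sample of IV-VI, VIII-IX or IX-XI or XII-I sample 1 (adjusted p up to 0.086), and for Senp2 the call was lost without either sample of XII-I, IV-VI, VII or IX-XI or VIII-IX sample 2 (adjusted p up to 0.12). The count of 29 fell to between 8 and 11 without either IV-VI sample, VII sample 2 or any sample of VIII-IX or IX-XI, to 17 without XII-I sample 1, and to 0 with VIII-IX sample 2 and IX-XI sample 2 left out together.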

How the data were processed

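Values for all 12 arrays came as a single deposited table of probe set intensity, made by the authors with RMA (background correction, quantile normalization and probe summary) per the submitters' processing notes, which name no version. The values were linear, from 24.97 to 21760, and were taken to log2 with nothing added. Since RMA makes the distributions of the arrays nearly alike, a change here is relative to other transcripts. Per the labels' protocols, amplification with the Ovation V2 kit started from 100 ng of RNA, and 3.75 ug of cDNA was labelled with the Encore biotin kit.

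Of 28853 probe sets, 21797 had 1 gene symbol, 1613 had several and 5443 were not listed in the array annotation. Only those with 1 symbol were used, and the brightest probe set was kept for the 999 genes with several, which left 19946 genes. Group means of the 6 groups were fitted to all 12 arrays with limma 3.58.1 (lmFit, eBayes) in R 4.3.3, leaving 6 residual degrees of freedom. The groups were compared by a moderated F test, contrasts set each group against the mean of the other 5, and p-values were adjusted by Benjamini-Hochberg over all genes. The scripts were tested on simulated data. No dim gene was removed. Precision is limited by the number of arrays.

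The 90 genes, the role and pathway lists and the tests were chosen with earlier results of these data known. Named genes were the 12 Ube2 and 14 Usp genes with the widest range past the F test, genes known from germ cells whatever their values, and up to 3 per pathway list. Alternatives were repeated quantile normalization, median centring, a filter on the dimmest 30% of genes, the mean of all probe sets, array weights, a replicate block, a trended and robust prior, leaving out each array, and leaving out the pair of VIII-IX sample 2 with IX-XI sample 2, which an earlier look at these data had placed out of their labelled order. No source used here gives the build of the array annotation. RefSeq tables of GRCm38.p6 gave chromosomes and promoters; 89 of the 90 genes were matched to a chromosome.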

Additional observations from a re-analysis of the deposited data

How the results depend on the processing

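The count of 27 changed genes was within 1.5 times under 7 of the 8 alternatives other than leaving out a single array, and so were the counts for Ube2, Usp and pathway genes. With VIII-IX sample 2 and IX-XI sample 2 left out together it was 0, as were the counts of Ube2, Usp and pathway genes and those of XII-I, VIII-IX and IX-XI against the other groups. Leaving out 1 array at a time gave 10 to 31 changed genes, 4 to 14 Ube2 genes, 6 to 19 Usp genes and 8 to 36 pathway genes. For single groups against the others it gave 0 to 29 genes in XII-I, 0 to 4 in II-IV, 0 to 15 in IV-VI, 0 to 5 in VII, 0 to 15 in VIII-IX and 0 to 7 in IX-XI. The share of all genes called also changed from fit to fit. In each such fit the lone array of its group was assumed to vary like the others. Array weights gave 7 genes in XII-I (2.77% of all genes were called), 22 in IV-VI (15.2%), 1 in VIII-IX (1.94%) and 21 in IX-XI (12.2%). The weights were the same for both samples of each group, so they acted as weights of groups and could not single out a poor array. They were highest for IV-VI and IX-XI, the groups that gained calls, and lower for XII-I and VIII-IX, which lost calls. Repeated quantile normalization gave 8 genes in IX-XI (4.28% of all genes were called), and the trended and robust prior gave 7 (3.78%). The cause of these differences was not tested. The sample numbers showed no steady pairing of the samples. Deviations of same-numbered samples correlated over 0.1 in 7 of 15 pairs of groups, and the correlations ran from -0.35 to 0.54. With the replicate block 28 of the 90 genes changed by the F test, of which 24 were among the 27. Of all genes, 20.8% changed in that fit. Ube2e1, Usp37 and Usp54 were lost (each with an adjusted p of 0.051). Genes gained included Usp25, Usp30 and Ube2t, with adjusted p of 0.031, 0.033 and 0.048. The counts for single groups were 23 in XII-I (12.6% of all genes were called), 2 in II-IV (3.76%), 14 in VIII-IX (9.71%) and 8 in IX-XI (5.85%). Of the 90 genes, 6 lay under the dim line, where a change is hard to see.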
